A study of Mus musculus with 48 samples.

Results

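Metallothioneins and zinc transporters were followed in mouse forelimb buds after exposure of the dam to cadmium or acetazolamide. The set held 9 genes, the metallothioneins Mt1, Mt2 and Mt3, the zinc exporters Slc30a1, Slc30a4 and Slc30a5, and the zinc importers Slc39a1, Slc39a4 and Slc39a8. The 9 were a fixed list, and each was read by probe sets of the array that named its symbol alone. They took up 13 of the 12488 probe sets on the array and 9 of the 8251 genes that could be tested. Mt4 and 6 further zinc transporter genes were also measured but were not members, and are read apart below. Mt1 was read by probe set 93573_at, Mt2 by 101561_at, Mt3 by 95340_at, Slc30a1 by 93938_at and Slc39a8 by 97442_at, and each of the other 4 transporters by 2 probe sets.

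RNA was measured on Affymetrix MG-U74Av2 arrays, which carry short oligonucleotide probes to mouse transcripts. Pregnant mice received an intraperitoneal injection on gestation day 9.5 of cadmium sulfate at 4 mg/kg, with phosphate-buffered saline (PBS) as its vehicle, or of acetazolamide at 400 mg/kg, with vegetable oil as its vehicle. The right forelimb buds were collected at 12 h or 3 h, and ectoderm was separated from mesoderm with crude trypsin. Acetazolamide blocks carbonic anhydrases, and both agents are known to cause loss of posterior digits of the right forelimb in mice. The groups were cadmium ectoderm and cadmium mesoderm at 12 h and at 3 h, each against PBS of the same tissue and time, and acetazolamide ectoderm and mesoderm at 12 h and at 3 h, each against oil of the same tissue and time. Each of the 16 groups had 3 arrays, 48 in all. The sources conflict on pooling: the treatment protocol says that tissue from several litters was pooled for an RNA sample, while the design text calls the extracts non-pooled. The mouse strain is not given in the sources used here, and all groups share an intraperitoneal injection of the dam. The labels do not say that the 3 arrays of a group came from separate pools, so p-values measure the spread between these arrays, which may be technical.

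The deposited values are ratios to the matching vehicle arrays, given here as log2, where 0 is the vehicle value and 1 a doubling. Vehicle arrays 1 and 2 were scaled to average 1 and vehicle array 3 was exactly 1, so the third vehicle value of each group is 0 on the log2 scale by construction. No expression level was kept. The level of 1 gene cannot be set against another, the tissues cannot be compared in untreated embryos, and the labelled tissue cannot be checked against the level of its markers. Array medians over all genes ran from -0.11 to 0.10. Differences between groups were tested for all 8251 genes in 1 linear model (limma), and a gene is called where its p-value, adjusted over all genes, is under 0.05. A change in whole tissue can reflect fewer cells of a type or less RNA per cell, and these cannot be told apart here.

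Metallothioneins are small cysteine-rich proteins that bind zinc, copper and cadmium. Zinc and cadmium induce Mt1 and Mt2 through the transcription factor MTF-1, which binds metal response elements in their promoters, and glucocorticoids induce them too. Zinc transporters of the Slc30 family move zinc out of the cytosol, across the plasma membrane or into vesicles, and those of the Slc39 family move it in.

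Promoter windows of Mt2, Mt1 and Slc30a1 are shown to make the metal response element visible beside the measurements. Mt2 and Mt1 were called in a cadmium comparison, and Slc30a1 only in the mesoderm difference between the 12 h and 3 h cadmium effects. Each window runs from 250 bases before to 50 bases after the annotated start, 5′ to 3′ on the gene's strand, from RefSeq on build GRCm38.p6. Capitals mark matches to the core of the element, searched as TGCACNC and TGCGCNC on both strands. The Mt2 window is chr8:94172368-94172667 and the Mt1 window chr8:94178839-94179138, both on the plus strand. Slc30a1 has its window at chr1:191906531-191906830, also on the plus strand.
Mt2: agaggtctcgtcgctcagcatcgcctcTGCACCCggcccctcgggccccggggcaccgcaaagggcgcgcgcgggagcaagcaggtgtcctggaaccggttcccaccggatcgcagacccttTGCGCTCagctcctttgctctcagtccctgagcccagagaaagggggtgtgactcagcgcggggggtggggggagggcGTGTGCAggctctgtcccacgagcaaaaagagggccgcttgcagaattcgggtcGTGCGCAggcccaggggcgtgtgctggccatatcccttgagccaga
Mt1: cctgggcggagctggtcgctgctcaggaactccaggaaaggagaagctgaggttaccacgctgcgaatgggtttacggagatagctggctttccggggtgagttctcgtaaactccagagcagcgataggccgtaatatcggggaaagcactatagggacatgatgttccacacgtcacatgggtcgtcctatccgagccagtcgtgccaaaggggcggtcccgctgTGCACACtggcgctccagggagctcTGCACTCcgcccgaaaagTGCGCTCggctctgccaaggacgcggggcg
Slc30a1: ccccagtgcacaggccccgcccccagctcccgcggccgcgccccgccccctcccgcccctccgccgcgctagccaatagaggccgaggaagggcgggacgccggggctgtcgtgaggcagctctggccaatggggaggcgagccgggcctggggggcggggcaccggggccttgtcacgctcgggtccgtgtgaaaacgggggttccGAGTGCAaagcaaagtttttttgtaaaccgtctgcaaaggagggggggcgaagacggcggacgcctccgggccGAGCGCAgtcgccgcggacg

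The Mt2 window held 4 matches, the Mt1 window 3 and the Slc30a1 window 2. Of all 32851 promoter windows of this length, 25.7% held at least 1 match, 7.11% at least 2, 1.97% at least 3 and 0.517% at least 4. Among the other members, Slc30a4 had 3 matches, Mt3 and Slc30a5 had 1 each, Slc39a1 had 0, and the windows of the 2 annotated starts of Slc39a8, a member called under acetazolamide in a mean of both tissues, had 0 and 1. Slc39a4 had no window in the table. A match says that the letters are present, not that a factor binds there. The windows depend on the annotated start, and sequence outside them was not searched. The counts are therefore those of the windows and not of the whole promoters. Mt2 and Mt1 lie next to each other on chromosome 8, in the order Mt4, Mt3, the non-coding RNA gene Gm39227, Mt2 and Mt1.

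**Figure D1:**
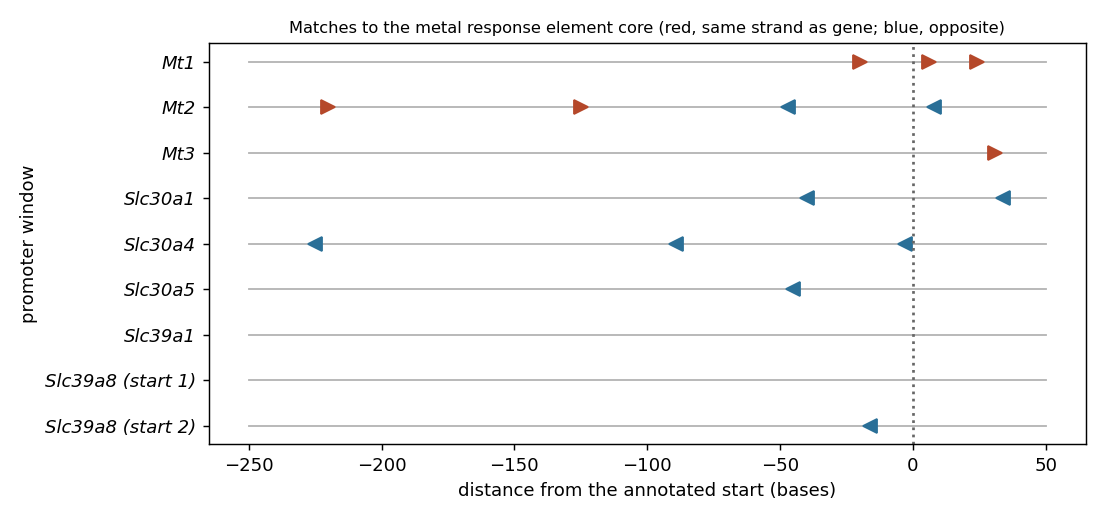
Matches to the metal response element core in the promoter window of each member, by distance in bases from the annotated start (dotted line). Red triangles are on the gene's strand and blue triangles on the opposite strand. Mt2 has 4 matches, Mt1 and Slc30a4 have 3 each and Slc30a1 has 2.

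Mt2 fell further than any of the other tested genes in cadmium mesoderm at 12 h. Mt2 encodes one of the ubiquitous metal-induced metallothioneins. Its log2 ratios were -3.27, -2.96 and -2.52 in the cadmium arrays, against -0.60, 0.42 and 0 in the PBS arrays. The groups were far apart, although the PBS arrays themselves differed by 1.02, more than in 99.6% of genes. The log2 difference was -2.86 ± 0.21 (SE, n = 3 each, 95% interval -3.29 to -2.43), which is 7.25-fold lower with cadmium (limma, adjusted p = 6.68e-10 over 8251 genes). It was first of 8251 genes ranked from the lowest effect.

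Mt1 fell in the same comparison by a smaller amount. Its log2 ratios were -0.93, -0.94 and -0.45 in the cadmium arrays, against -0.24, 0.20 and 0 in the PBS arrays. All 3 cadmium arrays lay below all PBS arrays, with the third nearer to them. The log2 difference was -0.76 ± 0.14 (SE, n = 3 each, 95% interval -1.06 to -0.47), or 1.70-fold lower (limma, adjusted p = 0.00204). Mt1 and Mt2 were the 2 members called of 9, where 2.28% of all genes were called in this comparison and 1.22% were called lower. Both calls were lost when only the 6 arrays of the comparison were fitted (adjusted p = 0.155 for Mt1 and 0.119 for Mt2), and the Mt1 call also without array weights (adjusted p = 0.121). The alternatives gave Mt1 an adjusted p between 0.000376 and 0.155 and Mt2 one between 5.57e-11 and 0.119. Probe sequences were not used here, and whether the probe sets of Mt1 and Mt2 cross-hybridise was not tested.

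Mt3, a metallothionein known mainly from brain, had log2 ratios of -0.18, 0.06 and 0.16 in cadmium mesoderm at 12 h, against 0.07, -0.08 and 0 with PBS. These overlapped, and the log2 difference was 0.02 ± 0.11 (SE, 95% interval -0.21 to 0.24). Mt4, the metallothionein of stratified epithelium, was the other measured member of its family and had a log2 difference of 0.14 ± 0.08 (SE, limma, adjusted p = 0.452). Of the 4 metallothionein genes on the array, 2 were called lower and 0 called higher in this comparison. Of all genes, 2.28% were called there and 1.22% were called lower.

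**Figure D2:**
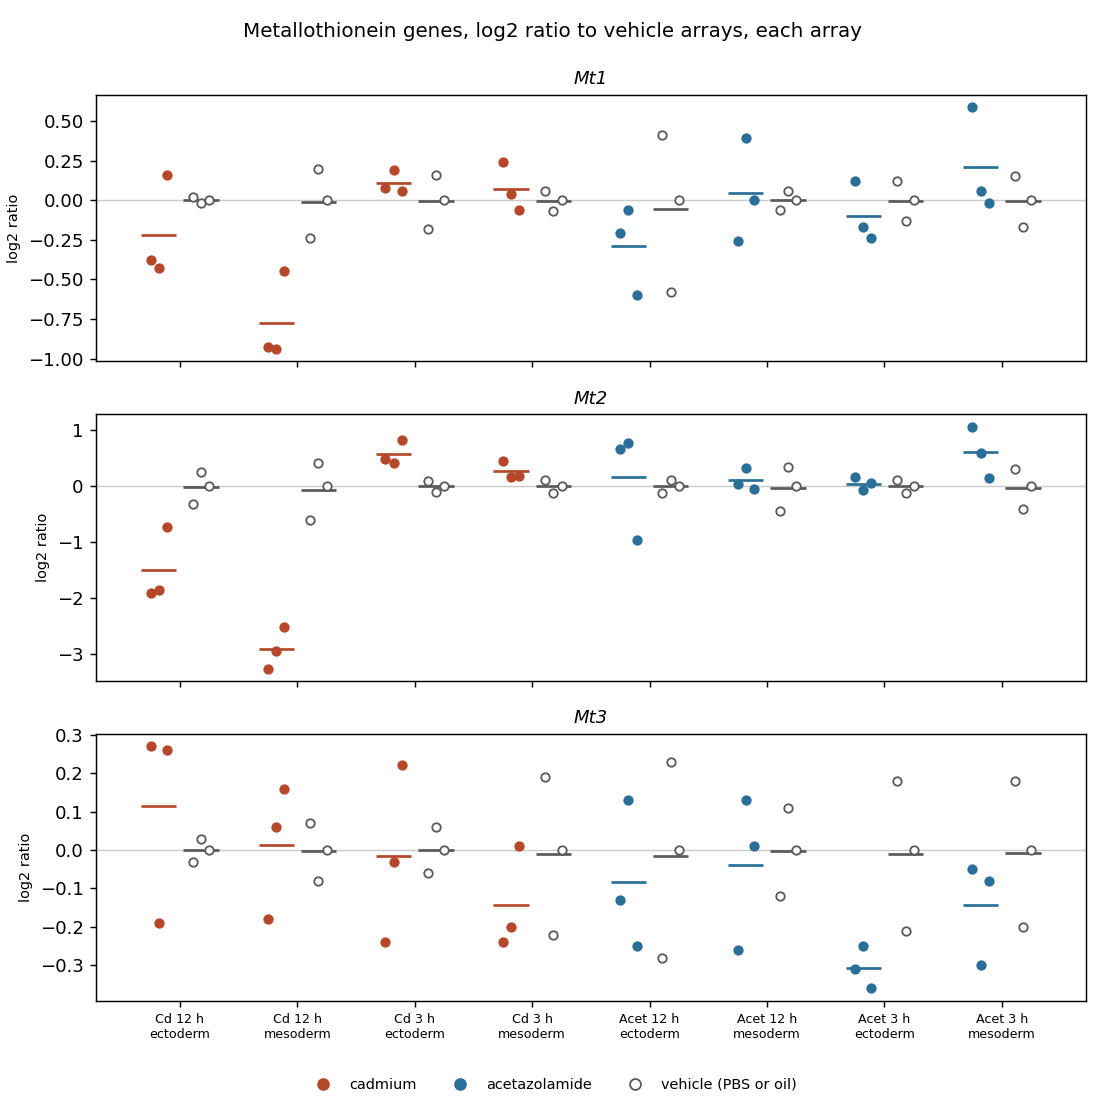
Log2 ratio to vehicle arrays of Mt1, Mt2 and Mt3 on each array (vertical axes, each with its own range) in the 8 comparisons. Filled points are cadmium (red) or acetazolamide (blue) arrays, open points the vehicle arrays beside them, and bars are group means. The Mt2 cadmium arrays at 12 h lie between -3.27 and -2.52 in mesoderm and between -1.92 and -0.73 in ectoderm.

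In cadmium ectoderm at 12 h, Mt2 was also low. Its log2 ratios were -1.92, -1.86 and -0.73 in the cadmium arrays, against -0.32, 0.26 and 0 in the PBS arrays. The groups did not overlap, and the third cadmium array stood nearer to the PBS arrays than the other 2 did. The log2 difference was -1.49 ± 0.41 (SE, n = 3 each, 95% interval -2.32 to -0.65), rank 4 of 8251 from the lowest, and it did not pass the adjustment (limma, adjusted p = 0.439). This comparison had the widest residual spread of the 8, with an SD of 0.223 on the log2 scale, against 0.115 in 12 h cadmium mesoderm. The difference passed the threshold without array weights (adjusted p = 0.00859) and without PBS array 1 (adjusted p = 0.0416). Without array 3 the log2 difference was -1.86 ± 0.49 (SE, limma, adjusted p = 0.81). All 8 measured endothelial markers were above 0 in this comparison, with a median of 0.16 beside 0.03 for all genes. Of 8 red blood cell markers 7 were above 0, with a median of 0.21 and array medians of -0.06 to 0.53 with cadmium, against -0.18 to 0.15 with PBS. All 8 visceral and yolk sac endoderm markers were above 0, with a median of 0.08 and array medians of -0.01 to 0.17 with cadmium, against -0.20 to 0.17 with PBS. None of these markers was called, and their part in the Mt2 values was not tested.

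Mt1 in the same ectoderm comparison had log2 ratios of -0.38, -0.43 and 0.16 with cadmium, against 0.02, -0.02 and 0 with PBS. The third cadmium array lay above the PBS arrays and the other 2 below, and the log2 difference was -0.22 ± 0.28 (SE, limma, adjusted p = 0.983). None of the 9 members was called, where 0.0242% of all genes were called and 4.45% had an unadjusted p under 0.05, among them the members Mt2 and Slc30a1. The difference between the cadmium effects in ectoderm and mesoderm at 12 h was 1.37 ± 0.46 for Mt2 (SE, 95% interval 0.43 to 2.32). It was the highest of 8251 genes but did not pass the adjustment, so the 2 tissues were not shown to differ.

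The mean of the ectoderm and mesoderm effects was tested for each agent and time, a choice made after the values had been seen. The fit treats the tissues as independent, but they were separated from forelimb buds. Whether both tissues of an array number came from the same buds is not stated. Any spread they share is not in the SE or p-value of a mean, which may then be too small. For cadmium at 12 h the mean gave Mt2 a log2 difference of -2.17 ± 0.23 (SE, 95% interval -2.64 to -1.70, limma, adjusted p = 2.92e-06), the lowest of 8251 genes. This call held in all 20 alternatives, with the adjusted p between 2.21e-07 and 0.0256, the highest being that with only the 12 arrays compared. Mt1 had -0.49 ± 0.16 and Slc30a1 -0.24 ± 0.07 (SE, limma, adjusted p = 0.143 and 0.0972), and Slc30a1 was called in 5 of 20 alternatives. The members called were 1 of 9 in this mean, where 1.07% of all genes were called, and 0 in cadmium at 3 h (0%) and in acetazolamide at 12 h (0.0242%).

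At 3 h after cadmium, Mt2 values lay on the other side of the vehicle. In ectoderm the log2 ratios were 0.49, 0.41 and 0.83 with cadmium, against 0.09, -0.10 and 0 with PBS. In mesoderm they were 0.46, 0.16 and 0.18 with cadmium, against 0.12, -0.13 and 0 with PBS. All cadmium arrays exceeded all PBS arrays in both tissues, by a wide margin in ectoderm and a narrow one in mesoderm. The log2 difference was 0.58 ± 0.26 in ectoderm (SE, n = 3 each, 95% interval 0.04 to 1.11, limma, adjusted p = 0.999) and 0.27 ± 0.22 in mesoderm (SE, 95% interval -0.18 to 0.72). Neither passed the adjustment, and 0% of all genes were called at 3 h in either tissue.

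Mt1 did not separate from PBS at 3 h. It had log2 ratios of 0.08, 0.19 and 0.06 in cadmium ectoderm, against -0.18, 0.16 and 0 in PBS ectoderm. In cadmium mesoderm the ratios were 0.24, 0.04 and -0.06, against 0.06, -0.07 and 0 in PBS mesoderm. The log2 differences were 0.12 ± 0.18 and 0.07 ± 0.15 (SE), with intervals of -0.24 to 0.48 in ectoderm and -0.23 to 0.38 in mesoderm.

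The change between the times was tested in the same fit. In mesoderm the 12 h effect of cadmium on Mt2 minus the 3 h effect was -3.13 ± 0.30 (SE, 95% interval -3.75 to -2.51, limma, adjusted p = 4.41e-07). For Mt1 that difference was -0.84 ± 0.21 (SE, limma, adjusted p = 0.065), just outside the threshold, and it passed when the shared denominators were left out of the fit (adjusted p = 0.0329), and without PBS array 1 at 12 h (0.0423) or at 3 h (0.025). In ectoderm the Mt2 difference was -2.06 ± 0.49 (SE, 95% interval -3.06 to -1.07, limma, adjusted p = 0.303), the lowest of 8251 genes, and it was called without 12 h PBS array 1 (adjusted p = 0.0479). In mesoderm 2 members were called, Mt2 and Slc30a1, where 0.461% of all genes were called. In ectoderm 0 of 9 members and 0.0121% of all genes were called.

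Neither Mt2 nor Mt1 was called under acetazolamide in either tissue or at either time, where 0% of all genes were called at 12 h, 0.0242% in 3 h ectoderm and 0.0364% in 3 h mesoderm. In acetazolamide mesoderm at 12 h, the Mt2 log2 ratios were 0.04, 0.32 and -0.05, against -0.44, 0.34 and 0 with oil. These overlapped, and the log2 difference was 0.14 ± 0.29 (SE, 95% interval -0.46 to 0.74). The cadmium effect on Mt2 in mesoderm at 12 h differed from the acetazolamide effect by -3.00 ± 0.36 (SE, limma, adjusted p = 4.22e-05), and Mt2 was the 1 gene called of all 8251 in that test, a share of 0.0121%. Here too the call was lost when only the arrays of the 2 comparisons were fitted (adjusted p = 0.131). For Mt1 the difference between the agents was -0.81 ± 0.24 (SE, limma, adjusted p = 0.726).

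Single acetazolamide arrays were far apart for Mt2. In acetazolamide mesoderm at 3 h the log2 ratios were 1.07, 0.60 and 0.15, against 0.31, -0.40 and 0 with oil. The third acetazolamide array fell inside the oil range, and the log2 difference was 0.63 ± 0.29 (SE, limma, adjusted p = 0.646). In acetazolamide ectoderm at 12 h the ratios were 0.67, 0.77 and -0.97, against -0.13, 0.12 and 0 with oil, a range wider than that of 99.2% of genes in those arrays. In acetazolamide ectoderm at 3 h the ratios were 0.16, -0.07 and 0.05, against 0.11, -0.12 and 0 with oil.

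Mt1 under acetazolamide stayed within or near the oil range. Its log2 differences were -0.24 ± 0.24 in ectoderm and 0.04 ± 0.20 in mesoderm at 12 h, and -0.09 ± 0.19 in ectoderm and 0.21 ± 0.19 in mesoderm at 3 h (SE, n = 3 each). Its first mesoderm array at 3 h, at 0.59, was the highest Mt1 value on any treated array. Mt3 had log2 ratios of -0.31, -0.25 and -0.36 in acetazolamide ectoderm at 3 h, against 0.18, -0.21 and 0 with oil. All 3 lay below the oil arrays, and the log2 difference was -0.30 ± 0.15 (SE, limma, adjusted p = 0.719). In the other 7 comparisons the Mt3 difference ran from -0.14 to 0.11 and its groups overlapped.

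**Figure D3:**
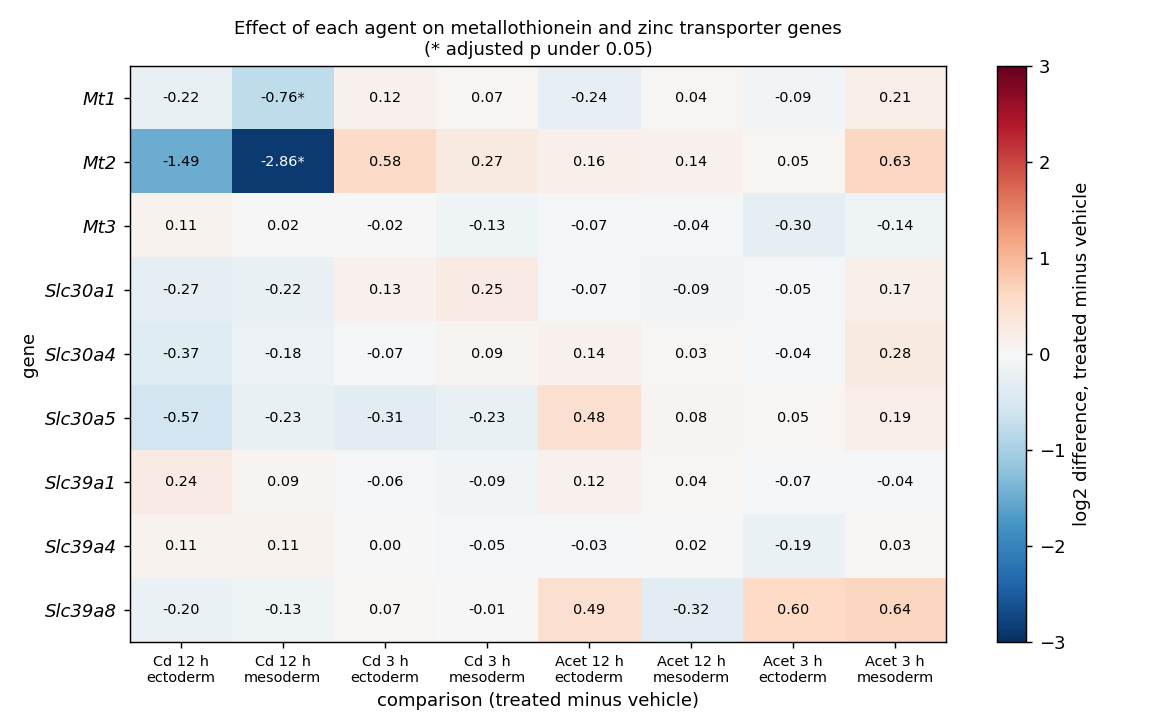
Log2 difference, treated minus vehicle, of each member (rows) in each of the 8 comparisons (columns), with colour from blue (lower) to red (higher) and an asterisk where the adjusted p is under 0.05. The 2 asterisks are Mt1 (-0.76) and Mt2 (-2.86) in cadmium mesoderm at 12 h.

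Slc30a1 encodes ZnT1, which exports zinc across the plasma membrane and is a target of MTF-1. It followed Mt2 in sign under cadmium with a smaller size. In cadmium mesoderm at 12 h its log2 ratios were -0.15, -0.31 and -0.19, against 0.01, -0.01 and 0 with PBS. In cadmium mesoderm at 3 h they were 0.32, 0.18 and 0.25, against -0.02, 0.02 and 0 with PBS. The groups were separate at both times, with cadmium below PBS at 12 h and above it at 3 h. The log2 difference was -0.22 ± 0.06 at 12 h (SE, n = 3 each, 95% interval -0.35 to -0.09, limma, adjusted p = 0.0715) and 0.25 ± 0.07 at 3 h (SE, 95% interval 0.11 to 0.39, limma, adjusted p = 0.889).

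The 12 h difference was called without cadmium array 1 (adjusted p = 0.0263). In the 3 h mesoderm arrays, 13 of 14 markers of limb and surface ectoderm were above 0, with a median of 0.22 beside 0 for all genes and 0 called. Their array medians ran from 0.10 to 0.22 with cadmium and from -0.03 to 0.02 with PBS, and their part in the Slc30a1 values was not tested.

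The change of the Slc30a1 effect from one time to the other passed the test although neither time did alone. The 12 h effect minus the 3 h effect in mesoderm was -0.47 ± 0.09 (SE, 95% interval -0.66 to -0.28, limma, adjusted p = 0.0228). The call held in 11 of 20 alternatives, with the adjusted p between 0.00625 and 0.599 and the log2 difference between -0.51 and -0.42. It was lost without array weights (adjusted p = 0.599), with arrays 1 and 2 alone (0.352), with only the 12 arrays compared (0.189), and in 6 of the 12 fits that left out 1 array, namely cadmium array 2 (0.0548), cadmium array 3 (0.0564) or PBS array 3 (0.0564) at 12 h and cadmium array 1 (0.12), cadmium array 3 (0.0947) or PBS array 3 (0.0947) at 3 h. Array 3 has its own denominator mean, so leaving out cadmium array 3 or PBS array 3 of a time is the same fit. Those fits are therefore not separate checks. In ectoderm the 12 h effect minus the 3 h effect was -0.40 ± 0.15 (SE, limma, adjusted p = 0.971).

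In cadmium ectoderm at 12 h Slc30a1 had log2 ratios of -0.13, -0.09 and -0.59, against -0.08, 0.08 and 0 with PBS. At 3 h it had 0.27, 0.11 and 0.01 with cadmium, against -0.05, 0.05 and 0 with PBS. The third cadmium ratio at 12 h, inferred to be against PBS array 3 alone, carried most of the 12 h difference. That difference was -0.27 ± 0.12 over all arrays (SE, limma, adjusted p = 0.983) and -0.11 ± 0.14 without array 3. Whether cadmium array 3 or PBS array 3 was the outlying one cannot be told. Under acetazolamide the largest Slc30a1 difference was in mesoderm at 3 h, where the ratios were 0.28, 0.16 and 0.07, against 0.02, -0.02 and 0 with oil. It came to 0.17 ± 0.09 (SE, limma, adjusted p = 0.695), and the other 3 acetazolamide differences ran from -0.09 to -0.05.

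Slc30a4 encodes ZnT4, which loads zinc into vesicles, and Slc30a5 encodes ZnT5 of the early secretory pathway. Neither was called in any comparison. In cadmium ectoderm at 12 h Slc30a4 had log2 ratios of -0.18, -0.12 and -0.83, against -0.04, 0.03 and 0 with PBS. Slc30a5 had -0.43, 0.14 and -1.48 there, against -0.30, 0.24 and 0 with PBS. The third cadmium array was the lowest for both genes, as it was for Slc30a1, while for Mt1 and Mt2 it was the highest of the 3. The log2 differences were -0.37 ± 0.19 for Slc30a4 and -0.57 ± 0.34 for Slc30a5 (SE, limma, adjusted p = 0.983 for Slc30a4), and without array 3 they were -0.15 ± 0.23 and -0.12 ± 0.39.

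The 2 probe sets of Slc30a4 disagreed. In acetazolamide mesoderm at 3 h, probe set 95571_at gave a log2 difference of 0.59 ± 0.23 with separate groups (SE, limma, adjusted p = 0.603), and probe set 161230_r_at gave -0.04 ± 0.10. Averaged, the gene had ratios of 0.24, 0.22 and 0.36 with acetazolamide, against 0.13, -0.15 and 0 with oil. All 3 lay above the oil arrays, and the difference was 0.28 ± 0.13 (SE, limma, adjusted p = 0.676). In cadmium mesoderm at 12 h both probe sets were below 0 (-0.28 ± 0.17 and -0.08 ± 0.08), and each overlapped PBS on its own. Averaged, the gene was at -0.21, -0.11 and -0.23 with cadmium, against 0.04, -0.04 and 0 with PBS, and these groups were separate. The 2 probe sets of Slc30a5 differed in sign in 1 comparison of 8, acetazolamide ectoderm at 3 h, at -0.05 ± 0.23 and 0.16 ± 0.26 (SE).

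Slc39a8 encodes ZIP8, an importer that carries zinc, manganese and cadmium. Acetazolamide arrays were above oil at 3 h in both tissues. In ectoderm its log2 ratios were 0.33, 0.68 and 0.75 with acetazolamide, against -0.25, 0.21 and 0 with oil. In mesoderm they were 0.39, 0.80 and 0.73 with acetazolamide, against 0.02, -0.02 and 0 with oil. All 6 acetazolamide arrays exceeded all oil arrays of their tissue. The log2 differences were 0.60 ± 0.19 in ectoderm (SE, n = 3 each, 95% interval 0.21 to 0.99, limma, adjusted p = 0.493) and 0.64 ± 0.19 in mesoderm (SE, 95% interval 0.25 to 1.03, limma, adjusted p = 0.38), folds of 1.52 and 1.56. Neither passed the adjustment, in comparisons where 0.0242% and 0.0364% of all genes did. The mesoderm difference passed without oil array 1 (adjusted p = 0.0407).

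In the remaining mean of both tissues, likewise chosen after the values had been seen, the fit gave a log2 difference of 0.62 ± 0.13 for Slc39a8 at 3 h of acetazolamide (SE, 95% interval 0.34 to 0.89, limma, adjusted p = 0.0268). It was 1 member called of 9, where 0.533% of all genes were called. The tissues were again treated as independent, so the SE and p-value may be too small. The call held in 11 of 20 alternatives, with the adjusted p between 0.0135 and 0.165. It was lost without array weights (0.0564), with arrays 1 and 2 alone (0.165), with only the arrays compared (0.0833) and in 6 of the 12 fits that left out 1 array, at oil array 1 (0.111) or acetazolamide array 2 (0.101) in ectoderm and at acetazolamide array 1 (0.0509), array 2 (0.159) or array 3 (0.077) or oil array 3 (0.077) in mesoderm. Leaving out acetazolamide array 3 or oil array 3 is the same fit and not a separate check. Differences between 3′ and 5′ probe sets of control transcripts, a sign of RNA quality, were also higher with acetazolamide than with oil at 3 h. For Gapdh the 3′ minus 5′ difference was higher by 0.45 in ectoderm and 0.59 in mesoderm, and for actin by 0.26 and 0.52. The shift was not particular to 3 h. At 12 h of acetazolamide Gapdh was higher by 0.41 in ectoderm and 0.42 in mesoderm, and actin by 0.23 and 0.24. Single acetazolamide arrays ran from -0.19 to 1.72 for Gapdh in 12 h mesoderm, beside an oil mean of 0.08. For actin in 3 h mesoderm they ran from -0.03 to 1.55, beside an oil mean of 0.35. In the other cases all acetazolamide arrays were above the oil mean. In 3 h mesoderm 2 of 9 limb mesoderm markers were above 0, with a median of -0.28 beside -0.03 for all genes. Their array medians ran from -0.38 to -0.09 with acetazolamide and from -0.01 to 0.01 with oil, so these groups were separate. Endothelial markers there had a median of -0.19, with array medians of -0.38 to 0.06 with acetazolamide and -0.02 to 0 with oil. In 3 h ectoderm 0 of 8 red blood cell markers were above 0, with a median of -0.14 beside -0.04 for all genes, and array medians of -0.30 to -0.07 with acetazolamide, against -0.09 to 0.09 with oil. In that tissue 0 of 8 endothelial markers were above 0, with a median of -0.11. No marker was called in either tissue, and the part of these values in the Slc39a8 result was not tested.

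At 12 h the Slc39a8 differences had opposite signs in the tissues. In acetazolamide ectoderm the log2 ratios were 0.47, 0.04 and 0.94, against -0.13, 0.12 and 0 with oil. In acetazolamide mesoderm they were 0.12, -0.69 and -0.43, against -0.21, 0.18 and 0 with oil. The ranges overlapped in both tissues. The ectoderm difference of 0.49 ± 0.23 and the mesoderm difference of -0.32 ± 0.20 were not called, and neither was their difference of 0.81 ± 0.31 (SE, 95% interval 0.18 to 1.43, limma, adjusted p = 0.967). In mesoderm the 12 h effect minus the 3 h effect was -0.96 ± 0.27 (SE, 95% interval -1.52 to -0.40, limma, adjusted p = 0.999), rank 8 of 8251 from the lowest.

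Under cadmium Slc39a8 lay within or near the PBS range. Its log2 differences were -0.20 ± 0.27 in ectoderm and -0.13 ± 0.14 in mesoderm at 12 h, and 0.07 ± 0.17 in ectoderm and -0.01 ± 0.15 in mesoderm at 3 h (SE, n = 3 each). The 12 h PBS ectoderm arrays differed by 0.92 for this gene, more than in 95.6% of genes. The cadmium effect minus the acetazolamide effect at 3 h was -0.53 ± 0.26 in ectoderm and -0.65 ± 0.24 in mesoderm (SE, limma, adjusted p = 0.788 and 0.999).

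Slc39a1 encodes ZIP1, a widely expressed importer, and Slc39a4 encodes ZIP4, the importer of intestine and yolk sac whose human gene is mutated in acrodermatitis enteropathica. Over the 8 comparisons Slc39a1 differences ran from -0.09 to 0.24 and Slc39a4 differences from -0.19 to 0.11. The highest Slc39a1 ratios were in cadmium ectoderm at 12 h, at 0.27, -0.01 and 0.45 with cadmium, against 0.14, -0.15 and 0 with PBS. The groups overlapped, and the 2 probe sets gave 0.01 ± 0.15 and 0.47 ± 0.24 (SE). The lowest Slc39a4 ratios were in acetazolamide ectoderm at 3 h, at -0.07, 0 and -0.52, against 0.16, -0.19 and 0 with oil, and these overlapped as well.

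**Figure D4:**
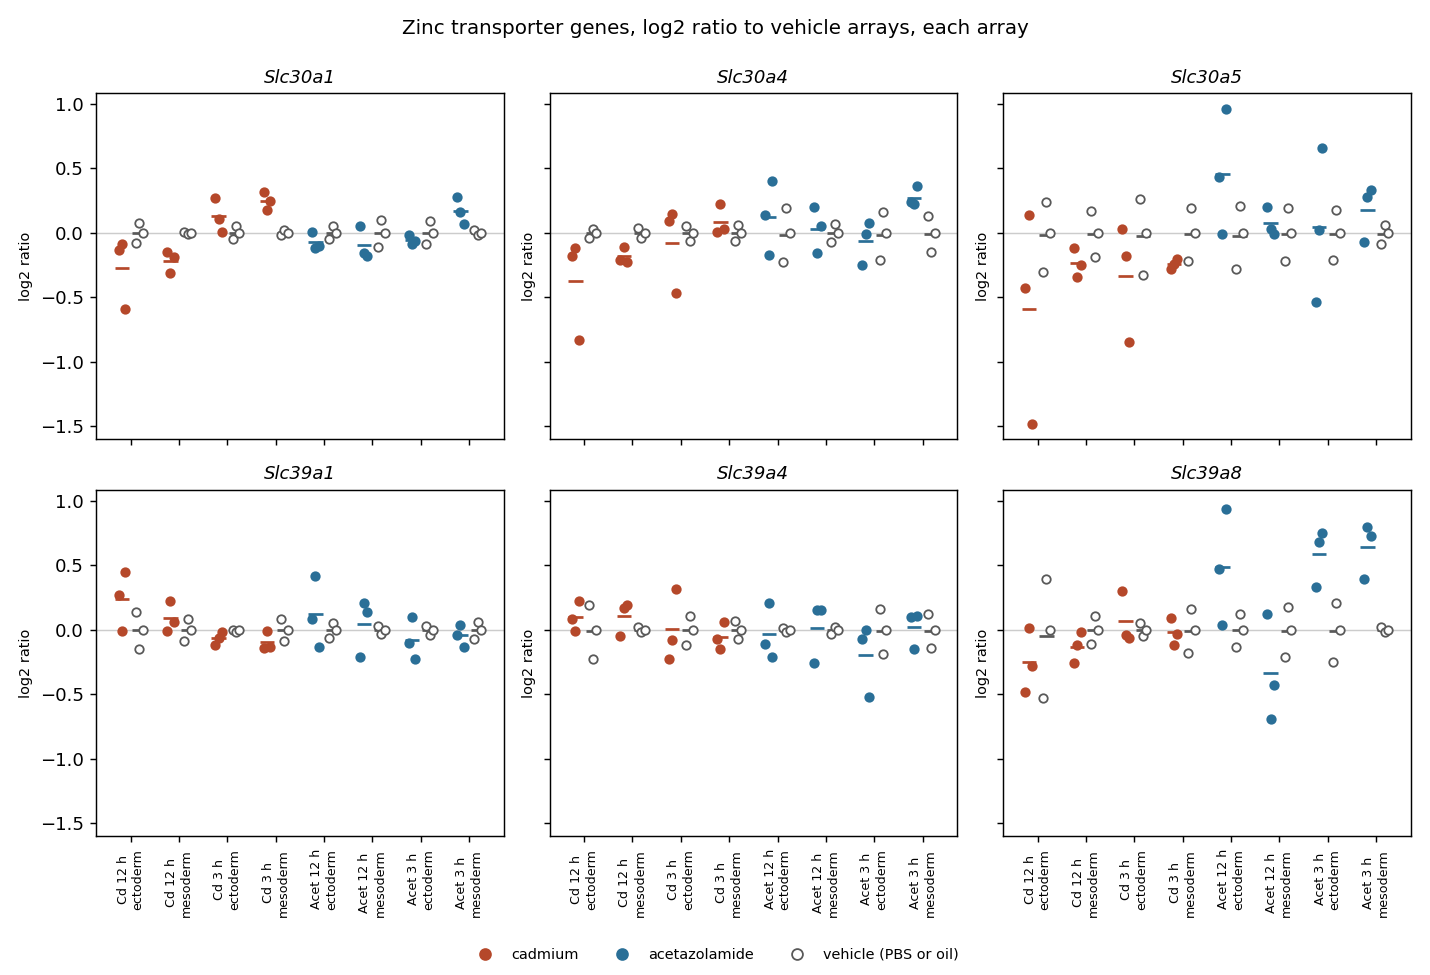
Log2 ratio to vehicle arrays of the 6 zinc transporter genes on each array, on 1 common vertical axis, in the 8 comparisons. Filled points are cadmium (red) or acetazolamide (blue) arrays, open points the vehicle arrays, and bars are group means. The 6 acetazolamide arrays at 3 h lie between 0.33 and 0.80 for Slc39a8, and the third cadmium array in 12 h ectoderm is at -1.48 for Slc30a5.

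The treated and vehicle arrays did not overlap in 16 of the 72 combinations of member and comparison. Under cadmium these were 3 of 9 members in 12 h ectoderm, where 10% of all genes did not overlap, 4 in 12 h mesoderm (19.3%), 2 in 3 h ectoderm (9.39%) and 2 in 3 h mesoderm (9.62%). Under acetazolamide they were 0 in 12 h ectoderm (16.8%), 0 in 12 h mesoderm (5.90%), 2 in 3 h ectoderm (13.8%) and 3 in 3 h mesoderm (15.9%). In cadmium mesoderm at 12 h all 4 were lower, Mt1, Mt2, Slc30a1 and Slc30a4, where 9.51% of all genes were separate and lower. Slc30a4 was separate only as the average of its 2 probe sets, each of which overlapped. The median log2 difference of the 9 members was -0.18 there, beside 0.01 over all genes. In acetazolamide mesoderm at 3 h the member median was 0.19, beside -0.03 over all genes, and in the other 6 comparisons it ran from -0.22 to 0.12. In the difference between ectoderm and mesoderm at 3 h of acetazolamide, all 9 members were below 0 with a median of -0.22, beside -0.02 over all genes, and 0 of 9 members and 0% of all genes were called.

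**Figure D5:**
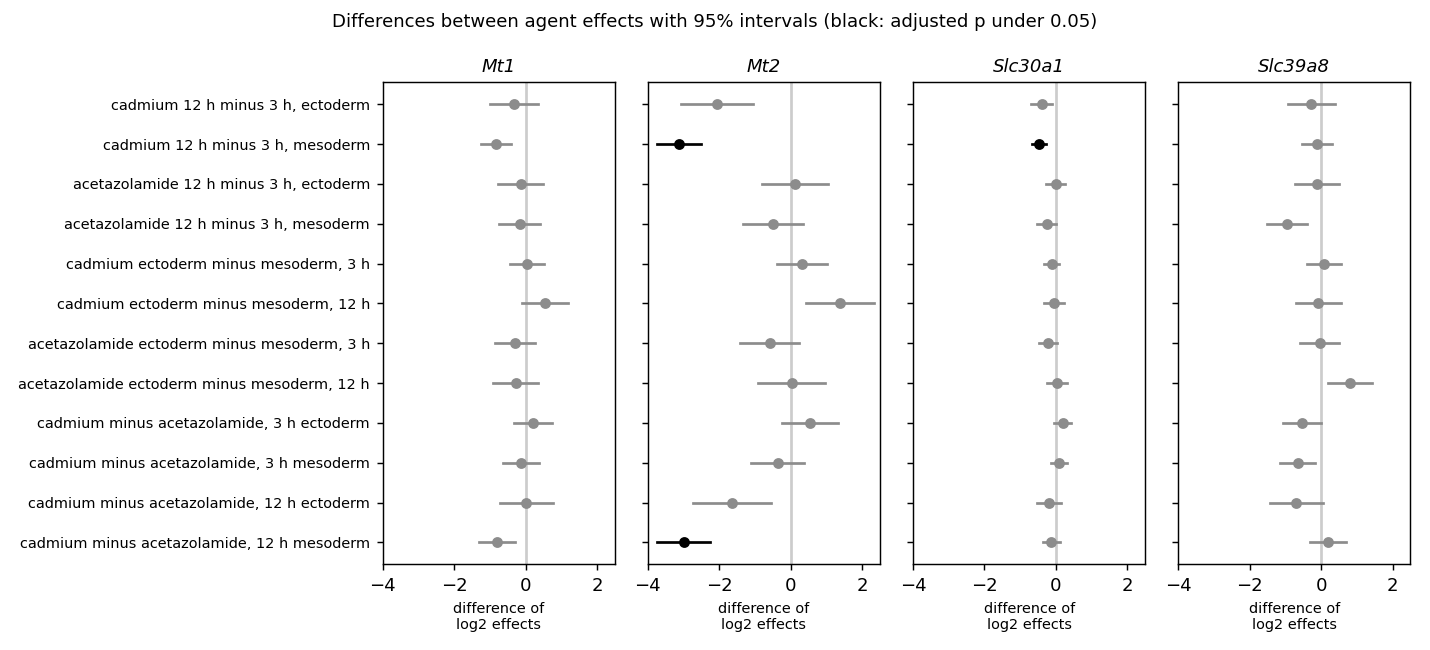
Differences between agent effects on the log2 scale for Mt1, Mt2, Slc30a1 and Slc39a8, with 95% intervals, for the 12 contrasts of times, tissues and agents. Black marks an adjusted p under 0.05. The 3 black points are Mt2 (-3.13) and Slc30a1 (-0.47) for cadmium at 12 h minus 3 h in mesoderm and Mt2 (-3.00) for cadmium minus acetazolamide in 12 h mesoderm.

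Other genes of zinc and metal handling were read from fixed lists. Of 18 further Slc30 and Slc39 genes, 6 were on the array, and 0 were called in any of the 8 comparisons. In cadmium mesoderm at 12 h their median difference was 0.06, with Slc39a7, the importer ZIP7 that releases zinc from the endoplasmic reticulum, at 0.32 ± 0.16 (SE, limma, adjusted p = 0.395). Of 8 measured genes among the metal-responsive factor and its targets, Gclc alone was called, in that comparison, at -0.35 ± 0.08 (SE, limma, adjusted p = 0.0107). Of all genes, 2.28% were called there. Gclc encodes the catalytic subunit of the enzyme that makes the first step of glutathione synthesis. Mtf1 itself, which encodes MTF-1, was at 0.03 ± 0.09 (SE), and the list's median was 0. Of 15 measured genes of iron and copper handling, 0 were called in any comparison.

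Stress and hormone lists were also read in cadmium mesoderm at 12 h, where 2.28% of all genes were called. Of 15 glutathione and oxidant defence genes, Gclc was called lower and Gsta4, a glutathione transferase, higher at 0.60 ± 0.16 (SE, limma, adjusted p = 0.0403), with a median of 0.04. Of 9 heat shock genes, 0 were called there or in any other comparison. Of 11 glucocorticoid-responsive genes, Fkbp5, a chaperone of the glucocorticoid receptor, was called lower at -0.40 ± 0.10 (SE, limma, adjusted p = 0.0365). Cdkn1a, which encodes the cell cycle inhibitor p21, was called higher at 1.57 ± 0.20 (SE, limma, adjusted p = 4.86e-05). None of the genes on these lists was called in the other 7 comparisons.

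Markers of other cell types moved in cadmium mesoderm at 12 h, where 2.28% of all genes were called, beside the fall of Mt1 and Mt2. Of 8 measured endothelial markers all were above 0, with a median of 0.18 beside 0.01 for all genes, and 2 were called, Tie1 at 0.63 ± 0.12 and Eng at 0.58 ± 0.16 (SE, limma, adjusted p = 0.00187 and 0.0424). Their array medians ran from 0.12 to 0.40 with cadmium and from -0.05 to 0.05 with PBS. Of 8 red blood cell markers, 7 were above 0 and 1 was called, Alas2 at 0.53 ± 0.12 (SE, limma, adjusted p = 0.0169), and array medians ran from 0.01 to 0.35 with cadmium and from -0.07 to 0.07 with PBS. Visceral and yolk sac endoderm, a tissue rich in metallothionein, had 8 measured markers with a median of 0.02 and 0 called, and array medians of -0.06 to 0.08 with cadmium and -0.02 to 0.02 with PBS. Of 14 ectoderm, 9 mesoderm and 7 macrophage markers, 0 were called. Since the values are ratios, which markers were near 0 in level cannot be read. The 3′ minus 5′ difference of Gapdh was lower by 0.25 with cadmium in 12 h mesoderm and higher by 0.49 in 12 h ectoderm, where single cadmium arrays ran from -0.67 to 1.80. The part of these markers and of RNA quality in the Mt1 and Mt2 values was not tested.

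Across the 24 treated arrays, the gene whose log2 ratios were most like those of Mt2 was Mt1, with a Pearson r of 0.85, and 0.73 over the 18 arrays left without cadmium at 12 h. Next to Mt2 came Uqcc3 (r = 0.84), Pigq (0.82), Ncoa3 (0.79) and Atf6 (0.79), which had r of 0.50, 0.47, 0.60 and 0.22 without those arrays. Most like Mt1 after Mt2 came Pigq (r = 0.77), Hoxc5 (0.73), Olfr16 (0.73) and Pstk (0.70), which had r of 0.54, 0.76, 0.74 and 0.50 without those arrays. Mt1 and Mt2 had an r of 0.93 over the 12 cadmium arrays and 0.75 over the 12 acetazolamide arrays. Mt2 and Slc30a1 had an r of 0.56 over 24 arrays and 0.40 over 18. Arrays of a comparison share vehicle denominators, so these values describe the arrays and carry no test.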

How the data were processed

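The deposited values are linear ratios per probe set. In each of the 8 comparisons of an agent with its vehicle, the first and second vehicle arrays summed to 2 within 3e-07 and the third was 1 within 6e-08, so the authors divided by vehicle arrays. How signals and ratios were made is not given in the sources used here, and the denominator of treated arrays is inferred from the numbering. Signal over background cannot be judged, so precision rests on the number of arrays. RNA was extracted with Trizol and RNeasy columns, per the labels' protocols. The files hold 0 columns without a sample.

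Ratios were converted to log2, and probe sets naming 1 gene in the platform annotation were averaged per gene. Probe sets naming several genes (396) or none (1237) and 66 control probe sets were left out. No filter on dim probe sets or pseudocount was possible. A single limma 3.58.1 model (R 4.3.3) over 48 arrays had 16 means for vehicle denominators (arrays 1 and 2 together, array 3 apart), 8 agent effects, 24 residual degrees of freedom, 1 precision weight per comparison from its residual variance, and eBayes. Benjamini-Hochberg adjustment ran over all 8251 genes of a contrast, with a threshold of 0.05 and 95% intervals. The fit was also run on simulated arrays with independent noise and the same denominators. These lack the correlation between array numbers given below, so they do not test the fit under it.

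The text names all 9 members, the genes past the threshold in the fixed lists and the genes most like Mt1 and Mt2. Mt4, Mtf1 and Slc39a7 were named after their values were seen. The members, lists, weights and tests were chosen with earlier results of these data known. Array numbers were checked as pairs: the difference between arrays 1 and 2 correlated at -0.20 to 0.65 between treated and vehicle arrays, over 0.1 in 3 of 8 comparisons. The correlation was highest in 12 h cadmium mesoderm (0.65), the comparison with the Mt1 and Mt2 calls, and was 0.55 in 3 h acetazolamide mesoderm. The labels give no pairs, so the reported fit did not use them, and a block for the array number is among the alternatives. Vehicle array 3 is fixed at 1 and could not be checked. Alternatives dropped the denominator means, the weights or the other comparisons, or used arrays 1 and 2 alone. Others used centred arrays, robust moderation or the array number as a block, or left out 1 array. A further alternative fitted probe sets apart and took, for each member, the one with the lowest p-value in the contrast. Promoters and gene order are from RefSeq, assembly GRCm38.p6, and 8 of 9 members had a window.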

Additional observations from a re-analysis of the deposited data

Results flagged for a closer look

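The effect of cadmium on 2 members differed between the times in mesoderm by a test of the difference itself. For Mt2 the 12 h effect minus the 3 h effect was -3.13 ± 0.30 on the log2 scale (SE, limma, adjusted p = 4.41e-07), with effects of -2.86 ± 0.21 at 12 h and 0.27 ± 0.22 at 3 h. For Slc30a1 it was -0.47 ± 0.09 (SE, limma, adjusted p = 0.0228), with effects of -0.22 ± 0.06 at 12 h and 0.25 ± 0.07 at 3 h.

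The effect on Mt2 in mesoderm at 12 h differed between the agents by -3.00 ± 0.36 (SE, limma, adjusted p = 4.22e-05), cadmium minus acetazolamide, with an acetazolamide effect of 0.14 ± 0.29. Groups of 3 arrays are too small for a test of single outlying arrays.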

How the results depend on the processing

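Of 3888 member effects recomputed under the alternatives, 3851 stayed on their side of the threshold, 22 lost their call, 15 gained one and 0 called effects changed sign, while 274 changed sign with no call under either setting. Of these, 9 lost calls (Slc39a8 in 3 h acetazolamide) and 5 gained calls (Slc30a1 in 12 h cadmium) were in the means of both tissues, which were chosen after seeing the data. In each comparison the fits without treated array 3 and without vehicle array 3 are the same fit, and both are counted here. The members called were 2 in 12 h cadmium mesoderm and 2 in its difference from 3 h. Without array weights 1 was called in each, and 1 each in 12 h cadmium ectoderm and in the difference between the agents in 12 h ectoderm, where 0 were called in the reported fit. With arrays 1 and 2 alone, the difference between the times in mesoderm had 1. With only the arrays compared, 0 were called in 12 h cadmium mesoderm, 1 in the difference between the times and 0 in the difference between the agents in 12 h mesoderm, from fits with fewer arrays. Leaving out 1 array gave 2 to 3 in 12 h cadmium mesoderm, 1 to 3 in the mesoderm difference between the times, and 0 to 1 in 12 h cadmium ectoderm, in its difference between the times and in 3 h acetazolamide mesoderm. Apart from these constructions, the cause was not tested. With the array number as a replicate block, 2 members were called in 12 h cadmium mesoderm and 3 in its difference from 3 h, where Mt1 was added (adjusted p = 0.0243), and no other call of a member changed. The pairing of array numbers is not supported by the labels. Over all genes, calls in 12 h cadmium mesoderm were 188, and 461 with the replicate block, 0 with only the arrays compared and 58 to 361 without 1 array. The 95% interval reached a median of 0.21 to either side of the effect in 12 h cadmium mesoderm and 0.42 in 12 h cadmium ectoderm.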
